A study of Mus musculus with 6 samples.

Results

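Transforming growth factor beta (TGF-beta) genes were read in mouse brown fat, the tissue that burns lipid to make heat, as a set of 10: the ligands Tgfb1, Tgfb2 and Tgfb3, the tethering protein gene Lrrc32, the latent binding protein genes Ltbp1, Ltbp3 and Ltbp4, the receptor genes Tgfbr1 and Tgfbr2, and the inhibitor gene Smad7. All 10 symbols were found among the 45777 genes of the deposited count table, and all 10 passed the filter on low counts that left 16707 genes for testing. The set was chosen by gene symbol with earlier results of the same comparison known, among them fold changes and test calls, so the values below describe these genes and are not independent evidence. The tissue came from male wild type C57Bl6/J mice that received intraperitoneal injections over 2 weeks, either of phosphate-buffered saline (PBS, 3 mice) or of Rb2 (ginsenoside Rb2, a saponin of ginseng; 3 mice). Neither age nor dose is given in the sources used here. The single comparison, Rb2 against PBS, addresses what Rb2 does in brown fat.

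TGF-beta is made as a precursor whose propeptide stays wrapped around the mature growth factor and keeps it inactive. Latent binding proteins bind this latent form covalently and store it in the extracellular matrix, whereas LRRC32 (also called GARP) holds it on the surface of cells such as regulatory T cells, platelets and endothelial cells. Once released, the ligand is bound by TGFBR2, which activates TGFBR1, and the signal passes through SMAD proteins to the nucleus. SMAD7 is induced by the pathway and shuts it off at the receptor. In fat, TGF-beta signalling is known for driving matrix production and for restraining the brown fat programme.

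The libraries carry the numbers of their columns: PBS 1, PBS 2 and PBS 4, then Rb2 1, Rb2 3 and Rb2 4. These differ from the numbers in the sample titles, and the labels give no pairing. Values of single libraries are given in that order. Levels are in CPM (counts per 1000000 after TMM scaling). With 83642183 to 92666780 counts per library, a gene at 0 could still have a level of up to 0.0307 to 0.0370 CPM (3 counts; counting error only). The brown adipocyte markers were abundant, and Ucp1, the uncoupling protein that makes the heat, averaged 3983 ± 711 CPM in the PBS group and 3674 ± 910 CPM in the Rb2 group (SD, n = 3 each); of 8 such markers Prdm16 alone was called, lower. Skeletal muscle markers summed to 1774 and 5608 CPM in PBS 1 and PBS 2, to 6.31 CPM in PBS 4, and to 0.697 to 329 CPM with Rb2, and results are therefore also given with these markers as a covariate or without PBS 1 and PBS 2 where the call changes. Markers of smooth muscle and pericytes summed to 802 to 835 CPM with PBS and 652 to 736 CPM with Rb2, and those of macrophages to 66.6 to 87.2 CPM and 49.2 to 70.7 CPM. Genes were tested with the quasi-likelihood test of edgeR, and those with a Benjamini-Hochberg adjusted p under 0.05 over all tested genes are said to be called.

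Of the 10 genes, 5 were called lower after Rb2 (Lrrc32, Smad7, Ltbp4, Tgfb1 and Ltbp1), none was called higher, and 5 were not called (Tgfb2, Tgfb3, Ltbp3, Tgfbr1 and Tgfbr2). Over all tested genes 10.4% were called, 5.11% lower and 5.33% higher; because the same comparison was known when the genes were chosen, nothing is read from the contrast between these shares and the set. At an unadjusted p under 0.05, edgeR and limma-voom each had 6 members lower and 0 higher. The DESeq2 Wald test had 6 lower and 1 higher, as had edgeR without PBS 4 or without Rb2 4. Of all 16707 tested genes, 5020 had such an unadjusted p in edgeR, in either direction. In limma-voom 4955 did, and in the DESeq2 Wald test 5291. After adjustment neither DESeq2 nor limma-voom called a member higher. The CPM of the groups did not overlap in 5 members that were lower and in 1, Tgfbr1, that was higher, beside 35.8% of all tested genes in either direction, 17.6% lower and 18.2% higher. The median log2 fold change of the 10 was -0.79, and that of all tested genes was -0.01. Without both PBS 1 and PBS 2, which leaves PBS 4 alone in its group, edgeR called 0 members (4 had an unadjusted p under 0.05, all lower) and 0 genes in all; the log2 fold changes were then -1.57 for Lrrc32, -1.44 for Smad7, -1.08 for Ltbp4, -0.91 for Tgfb1 and -0.44 for Ltbp1 (adjusted p 0.102 to 0.501). Ltbp4, Tgfb2, Tgfbr1, Tgfbr2 and Smad7 overlap non-coding RNA genes and Ltbp1 a pseudogene in RefSeq, and reads of the 2 strands cannot be told apart because the strand setting of the counting is unknown.

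**Figure D1:**
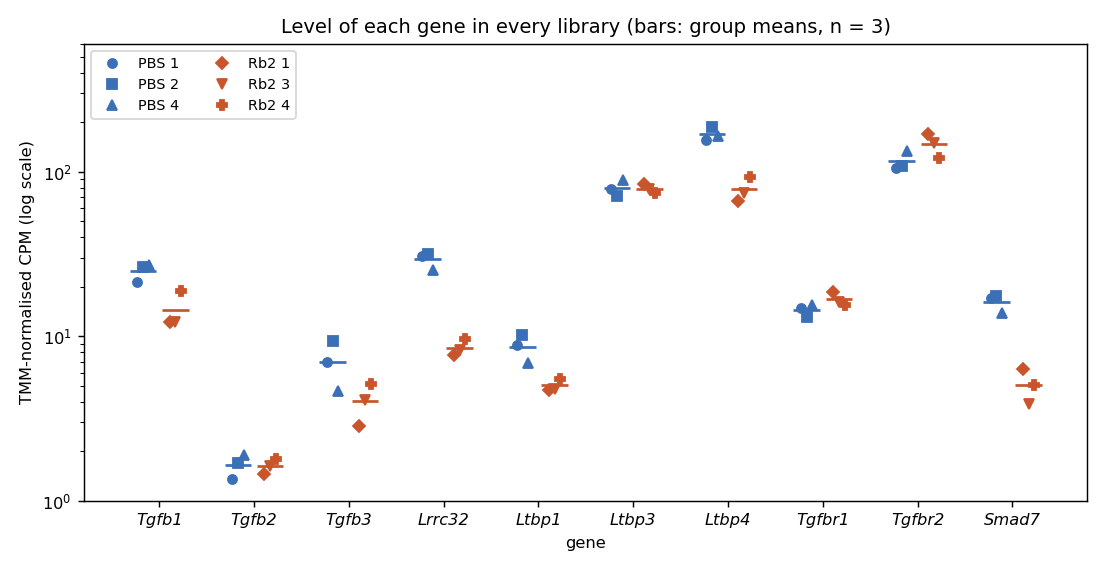
TMM-normalised CPM (log axis) of the 10 genes in each of the 6 libraries; points are libraries and bars are group means of 3 mice. Lrrc32 lies between 25.5 and 31.7 CPM with PBS and between 7.71 and 9.70 CPM with Rb2, while the points of Ltbp3, Tgfb2, Tgfb3 and Tgfbr2 overlap between groups.

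RefSeq promoter sequences (build GRCm38.p6) were matched for 7 of the 10 genes; Lrrc32, Tgfb3 and Smad7 had no entry. Those of the called genes that matched, Tgfb1, Ltbp1 and Ltbp4, are shown because these mRNAs were lower together. Each is the 250 bases before a start site, the farthest upstream of those in the promoter table, 5′ to 3′, with capitals for the GC box GGGCGG, a binding motif of SP1-type factors, and for CAGAC, the short motif that SMAD3 and SMAD4 bind, each searched on both strands.
Tgfb1, chr7:25686752-25687001, plus strand: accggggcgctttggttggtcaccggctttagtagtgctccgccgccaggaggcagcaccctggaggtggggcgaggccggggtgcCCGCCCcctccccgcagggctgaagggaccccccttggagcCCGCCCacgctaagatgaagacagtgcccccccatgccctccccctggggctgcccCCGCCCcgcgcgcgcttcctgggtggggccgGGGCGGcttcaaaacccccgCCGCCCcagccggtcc
Ltbp1, chr17:75005279-75005528, plus strand: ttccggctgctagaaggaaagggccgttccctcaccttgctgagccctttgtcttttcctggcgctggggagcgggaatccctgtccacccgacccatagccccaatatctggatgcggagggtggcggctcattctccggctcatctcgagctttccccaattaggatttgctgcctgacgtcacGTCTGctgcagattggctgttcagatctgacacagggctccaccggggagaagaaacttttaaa
Ltbp4, chr7:27337613-27337862, minus strand: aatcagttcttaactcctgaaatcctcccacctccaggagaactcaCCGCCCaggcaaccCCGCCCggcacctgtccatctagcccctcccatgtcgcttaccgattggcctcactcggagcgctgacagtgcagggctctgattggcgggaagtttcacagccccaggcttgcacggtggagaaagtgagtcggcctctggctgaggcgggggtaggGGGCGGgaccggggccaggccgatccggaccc
The Tgfb1 window held 5 GC boxes and no CAGAC, the Ltbp4 window 3 and none, and the Ltbp1 window no GC box and 1 CAGAC. Among all 32851 promoter windows of this length, 32.7% held GGGCGG and 42.2% held CAGAC. These shares are not matched for GC content, which was 75.2% for Tgfb1, 64.4% for Ltbp4 and 56.8% for Ltbp1. The median over all windows was 52.4%. Among the members that were not called, Tgfbr1 had 2 GC boxes and no CAGAC, Tgfb2 had 2 CAGAC, and Ltbp3 and Tgfbr2 had 1 CAGAC each. The motifs occurred in windows of called and of uncalled genes; a match is a run of letters and no measured site. The Ltbp4 and Ltbp1 genes as annotated in RefSeq begin upstream of the start sites used here, so their windows lie wholly or partly inside the gene.

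Lrrc32 encodes the membrane protein that captures latent TGF-beta at the cell surface (gene 434215; chromosome 7, 98489305 to 98501831 in GRCm38.p6). It stood at 31.0, 31.7 and 25.5 CPM with PBS and at 7.71, 8.22 and 9.70 CPM with Rb2. Every PBS library was above every Rb2 library, and the lowest PBS value was that of PBS 4, the PBS library with few muscle transcripts. The group means were 29.4 ± 3.41 and 8.54 ± 1.04 CPM (SD, n = 3 each). The log2 fold change was -1.78 ± 0.15 (SE; edgeR adjusted p = 0.00166), and Lrrc32 was called whichever library was left out. With the muscle markers as a covariate it was called too (-1.68, edgeR adjusted p = 0.00189). The mean level after Rb2 was 0.291 of that with PBS.

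Endothelial cells are a known site of Lrrc32 expression, and endothelial transcripts were lower as well. All 10 endothelial markers examined had a negative log2 fold change (median -0.66, beside -0.01 over all tested genes). Of the 10, 4 were called lower, 40%, beside 5.11% of all tested genes. The marker lists were also chosen with earlier results of these data known, so nothing is read from these contrasts. Summed levels of the 10 markers were 1415 to 1609 CPM with PBS and 812 to 1217 CPM with Rb2. In bulk tissue, fewer cells of a type and less RNA per cell cannot be told apart. Lrrc32 was also set against each marker inside each library, which needs no scaling between libraries. The ratio of Lrrc32 CPM to the CPM of Pecam1, an adhesion molecule of endothelial junctions, was 0.126, 0.128 and 0.122 in the PBS libraries and 0.0536, 0.0538 and 0.0484 in the Rb2 libraries, in the order of their numbers. Relative to Cdh5 (VE-cadherin), the mean ratio was 0.0749 ± 0.0108 with PBS and 0.0379 ± 0.00254 with Rb2 (SD, n = 3 each). For 9 of the 10 markers the ratio was lower in every Rb2 library than in every PBS library. Those 9 had log2 fold changes of -0.23 to -0.94, against -1.78 for Lrrc32. Lower mean ratios to them follow from these values and are no separate result. The exception was Cldn5, a tight junction gene with a log2 fold change of -2.05 of its own (edgeR adjusted p = 0.00258). The part of endothelial cells in the Lrrc32 values was not tested.

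Markers of the other cells that carry LRRC32 were scarce. Of 6 regulatory T cell markers, Foxp3, the defining transcription factor, was at 0 in 4 libraries and at most at 0.0724 CPM, and Ctla4 was at 0 in 3. Il2ra (1.17, edgeR adjusted p = 0.0101) and Ikzf2 (1.17, edgeR adjusted p = 0.0271) rose, neither of which is limited to T cells, while Cd3e, a T cell receptor subunit, was at 0.119 to 0.351 CPM over all libraries. The 7 platelet and megakaryocyte markers summed to 6.61 to 8.04 CPM with PBS and 3.93 to 5.36 CPM with Rb2. None of the 4 that could be tested was called (edgeR). Of these 4, 3 had an unadjusted p under 0.05, all lower, beside 5020 of 16707 tested genes in either direction. The part of these cells in the Lrrc32 values was not tested.

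**Figure D2:**
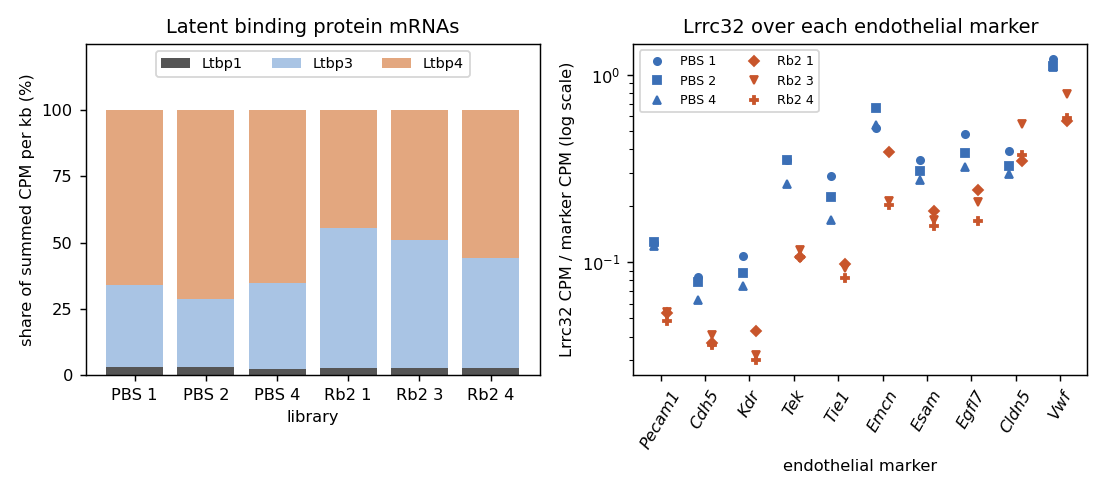
Left, share of Ltbp1, Ltbp3 and Ltbp4 in their summed CPM per kilobase (%) in each library. Right, ratio of Lrrc32 CPM to the CPM of each of 10 endothelial markers (log axis), 1 point per library; for Pecam1 the PBS points lie at 0.122 to 0.128 and the Rb2 points at 0.0484 to 0.0538, and for Cldn5 the groups overlap.

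Among the ligands, Tgfb1, the main isoform of blood, immune and vessel cells (gene 21803; chromosome 7, 25687002 to 25705077), was at 21.5, 26.6 and 27.2 CPM with PBS and at 12.3, 12.2 and 18.8 CPM with Rb2. The groups did not overlap, and Rb2 4 lay nearest to the PBS libraries. It fell by 0.80 on the log2 scale (SE 0.19, edgeR adjusted p = 0.0304), and was called in 1 of 6 tests with a library left out, that without Rb2 4 (the other adjusted p 0.0638 to 0.112). With the muscle covariate it was not called (-0.77, edgeR adjusted p = 0.0629). Tgfb3 (gene 21809; chromosome 12, 86056743 to 86079041) was at 6.97, 9.43 and 4.68 CPM with PBS and 2.83, 4.12 and 5.12 CPM with Rb2. Its fold change was as large (-0.80 ± 0.29 SE), but PBS 4 fell among the Rb2 libraries and the gene was not called (edgeR adjusted p = 0.110); without PBS 4 it was (-1.05, edgeR adjusted p = 0.0481), and so it was by the DESeq2 Wald test (adjusted p = 0.0354). The Tgfb3 value shrank to -0.47 with the muscle covariate (edgeR adjusted p = 0.179) and to -0.22 without PBS 1 and PBS 2 (edgeR adjusted p = 0.828). Tgfb2 (gene 21808; chromosome 1, 186622787 to 186709697) rested on only 110 to 187 counts a library, at 1.36, 1.69 and 1.91 CPM with PBS and 1.45, 1.62 and 1.78 CPM with Rb2. Its log2 fold change was -0.03 (95% interval -0.56 to 0.51; edgeR adjusted p = 0.950).

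Per kilobase of the longest transcript, Tgfb1 made up most ligand mRNA in every library: 76.8% to 85.7% of the 3 ligands with PBS and 75.6% to 81.0% with Rb2, ranges that overlap. Tgfb3 took 17.1% ± 5.12 with PBS and 16.7% ± 2.59 with Rb2 (SD, n = 3 each). Tgfb2, the least abundant, went from 2.65% ± 0.327 to 4.55% ± 0.656 of ligand mRNA without overlap, beside a lower Tgfb1 level. Lrrc32 was lower relative to its cargo Tgfb1 as well: this per-kilobase ratio was 0.809, 0.670 and 0.526 with PBS and 0.352, 0.377 and 0.291 with Rb2. A lower mean ratio follows from the log2 fold changes of Lrrc32 (-1.78) and Tgfb1 (-0.80) and is no separate result.

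Of the latent binding proteins, Ltbp4, which is needed for elastic fibre assembly and stores latent TGF-beta1 in the matrix (gene 108075; chromosome 7, 27305140 to 27339720), was the most abundant with PBS. Its values were 157, 188 and 166 CPM with PBS and 67.0, 74.6 and 93.4 CPM with Rb2, with a wide gap between the groups. It fell by 1.12 on the log2 scale (SE 0.16, edgeR adjusted p = 0.00628) and was called whichever library was left out. Ltbp1, the best studied matrix anchor of latent TGF-beta (gene 268977; chromosome 17, 75005480 to 75392512), was at 8.90, 10.2 and 6.85 CPM with PBS and 4.73, 4.81 and 5.53 CPM with Rb2. It fell by 0.79 (SE 0.18, edgeR adjusted p = 0.0282), but was not called without PBS 1, PBS 2, Rb2 1 or Rb2 3 (adjusted p 0.0907 to 0.125), nor with the muscle covariate (-0.64, edgeR adjusted p = 0.0661).

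Ltbp3, a partner of TGF-beta1 known for its role in bone and teeth (gene 16998; chromosome 19, 5740900 to 5758536), was not called. Its levels of 78.9, 71.4 and 88.7 CPM with PBS and 85.0, 78.5 and 73.9 CPM with Rb2 were interleaved, with a log2 fold change of -0.01 (95% interval -0.30 to 0.29; edgeR adjusted p = 0.970). The ratio of Ltbp4 to Ltbp3 per kilobase was 2.12, 2.80 and 1.99 with PBS and 0.839, 1.01 and 1.34 with Rb2. Ltbp4 made up 67.5% ± 3.39 of the mRNA of these 3 genes with PBS and 49.8% ± 5.71 with Rb2, and Ltbp3 29.8% ± 3.78 and 47.7% ± 5.78 (SD, n = 3 each). Ltbp2, the family member that does not bind latent TGF-beta and is not part of the set, is named after its values were seen: it was at 43.8, 60.4 and 60.4 CPM with PBS and 90.2, 74.0 and 75.3 CPM with Rb2, higher without overlap and not called (0.54 ± 0.16 SE, edgeR adjusted p = 0.0579).

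Fibroblasts and progenitors, a main source of latent binding proteins, had lower marker sums with Rb2 (133 to 216 CPM) than with PBS (212 to 317 CPM), with overlap between the groups. Of 8 markers 7 had a negative log2 fold change (median of the 8 -0.79, beside -0.01 over all tested genes). Clec3b alone was called, lower (12.5%, beside 5.11% of all tested genes). Ltbp4 relative to these markers was lower without overlap for 2 of 8 (Pdgfra and Cd34), and Ltbp1 for 1 of 8 (Pdgfra). Against the 10 endothelial markers Ltbp4 was lower for 7, higher for 1 (Cldn5) and overlapping for 2, whereas Tgfb1 was lower for 3, higher for 1 (Cldn5) and overlapping for 6. Mean ratios of this kind follow from the fold changes of member and marker and are no separate result. The part of these cell types in the Ltbp4, Ltbp1 and Tgfb1 values was not tested.

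The receptors were not called. Tgfbr2, the ligand-binding receptor kinase (gene 21813; chromosome 9, 116087695 to 116175363), was at 106, 109 and 135 CPM with PBS and at 171, 151 and 122 CPM with Rb2, so that PBS 4 lay above Rb2 4. The log2 fold change was 0.34 (95% interval -0.03 to 0.71; edgeR adjusted p = 0.197). Tgfbr1, the signalling kinase (gene 21812; chromosome 4, 47353222 to 47414926), was at 14.8, 13.1 and 15.5 CPM with PBS and 18.6, 16.1 and 15.6 CPM with Rb2. The highest PBS and the lowest Rb2 value nearly met (log2 fold change 0.21, 95% interval -0.08 to 0.51; edgeR adjusted p = 0.304). Per kilobase, the ratio of Tgfbr2 to Tgfb1 was 1.57, 1.31 and 1.57 with PBS and 4.42, 3.92 and 2.06 with Rb2. It was higher with Rb2 without overlap, and Rb2 4 had the lowest ratio of the 3 Rb2 libraries. Tgfb1 had a log2 fold change of -0.80, while Tgfbr2 overlapped between groups. A higher mean ratio follows from these values and is no separate result.

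Smad7, the inhibitory SMAD that is itself a target of the pathway (gene 17131; chromosome 18, 75367365 to 75395935), had the second largest fall of the set. It was at 17.2, 17.7 and 13.8 CPM with PBS and at 6.33, 3.90 and 5.04 CPM with Rb2, with no overlap. It fell by 1.67 on the log2 scale (SE 0.19, edgeR adjusted p = 0.00322) and was called whichever library was left out. Relative to the 10 endothelial markers Smad7 was lower without overlap for 6 and overlapping for 4. The markers other than Cldn5 had log2 fold changes of -0.23 to -0.94. Lower mean ratios to them follow from these values and are no separate result. The part of endothelial cells in the Smad7 values was not tested.

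In level per kilobase with PBS the order was Ltbp4 (31.6 ± 2.91), Tgfbr2 (14.4 ± 1.92), Ltbp3 (13.9 ± 1.52), Tgfb1 (9.75 ± 1.21), Lrrc32 (6.42 ± 0.745), Smad7 (3.79 ± 0.487), Tgfbr1 (2.51 ± 0.217), Tgfb3 (2.08 ± 0.702), Ltbp1 (1.30 ± 0.256) and Tgfb2 (0.323 ± 0.0545 CPM per kilobase; SD, n = 3 each). Tgfbr2 and Ltbp3 overlapped, as did Tgfbr1 with Tgfb3 and Tgfb3 with Ltbp1. With Rb2, Tgfbr2 led (18.3 ± 3.07), Ltbp4 (14.5 ± 2.52) overlapped with both Tgfbr2 and Ltbp3 (13.8 ± 0.968), and Lrrc32 (1.87 ± 0.227) came below Tgfbr1 (2.91 ± 0.277 CPM per kilobase; SD, n = 3 each) without overlap. Tgfb1 (5.61 ± 1.46) lay between Ltbp3 and Tgfbr1, and below Lrrc32 came Tgfb3 (1.19 ± 0.339) and Smad7 (1.19 ± 0.284), which overlapped, then Ltbp1 (0.753 ± 0.0661) and Tgfb2 (0.317 ± 0.0324 CPM per kilobase; SD, n = 3 each).

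**Figure D3:**
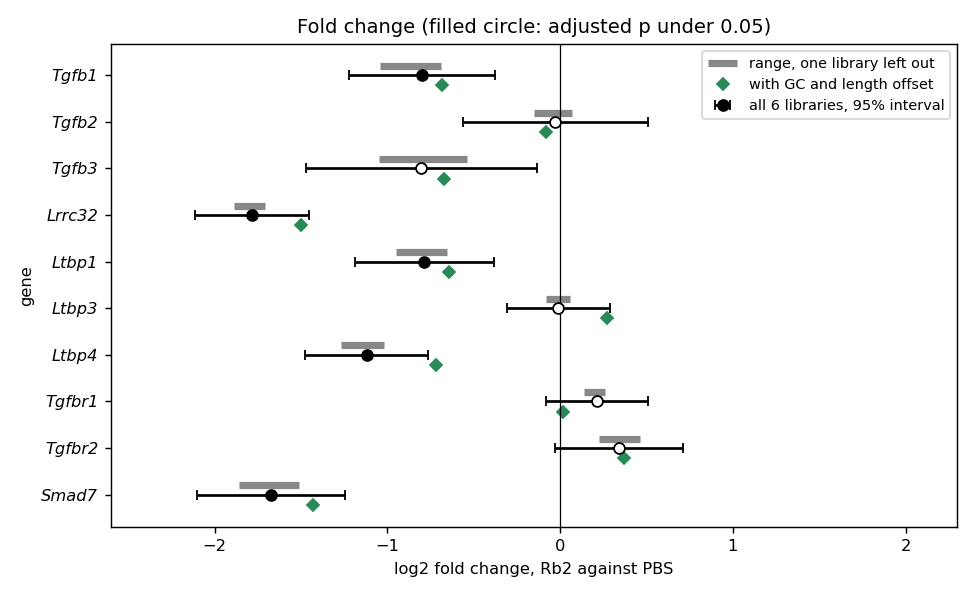
Log2 fold change of the 10 genes, Rb2 against PBS, with the 95% interval of the edgeR fit (filled circles are called), the range when 1 library is left out (grey) and the value with GC content and transcript length corrected for (green). Lrrc32, Smad7 and Ltbp4 lie at -1.02 or lower in the whole grey range, while Tgfb2 and Ltbp3 straddle 0.

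Across all genes the fold change went with GC content: the median was 0.26 in the 1577 genes with the lowest GC content (31.0% to 41.4%), of which 0.444% were called lower, and -0.33 in the 1578 with the highest (57.8% to 72.8%), of which 12.5% were. The called members had transcripts of 52.5% to 62.2% GC. Lrrc32, called lower, and Ltbp3, not called, both had 58.3% GC, and Tgfbr1 had 41.0%. With GC content and length corrected for, the same 5 members were called: Lrrc32 at -1.50, Smad7 at -1.43, Ltbp4 at -0.72, Tgfb1 at -0.68 and Ltbp1 at -0.65 (edgeR adjusted p 0.00274 to 0.0433). The Ltbp4 value moved by more than 1.5-fold on the log2 scale, that of Tgfbr1 went from 0.21 to 0.02 (edgeR adjusted p = 0.938), that of Ltbp3 became 0.27, and that of Ltbp2 became 0.85 (edgeR adjusted p = 0.0117).

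The rest of the pathway was read from a list of 69 genes, 66 of them tested, of which 11 were called lower and 1 higher. Calls made up 18.2% of the tested list, beside 10.4% of all tested genes, and lower calls 16.7%, beside 5.11%. The median log2 fold change of the list was -0.41, and that of all tested genes was -0.01. Here too the list was chosen with earlier results of these data known. Nothing is therefore read from these contrasts or from the counts by role below. Of 17 genes that form or open the latent store, 16 were tested and 4 fell. These were Fbn1, the fibrillin to which latent complexes attach (-1.08 ± 0.19 SE, edgeR adjusted p = 0.0118), Mmp14, a membrane protease (-1.01 ± 0.19 SE, edgeR adjusted p = 0.0149), Mmp2, a gelatinase that it activates (-0.64 ± 0.14 SE, edgeR adjusted p = 0.0222), and Emilin1, which blocks processing of the TGF-beta precursor (-0.78 ± 0.19 SE, edgeR adjusted p = 0.0311). Of 8 other receptors 2 fell, both known mainly from endothelial cells: Eng, the co-receptor endoglin, from 185 ± 7.04 to 81.2 ± 17.1 CPM (SD, n = 3 each; -1.18 ± 0.17 SE, edgeR adjusted p = 0.00641), and Acvrl1, the kinase ALK1 that works with it, from 49.4 ± 3.34 to 24.2 ± 4.98 CPM (SD, n = 3 each; -1.03 ± 0.16 SE, edgeR adjusted p = 0.00835).

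Of 14 SMADs and regulators 1 fell, Smad3, which carries the TGF-beta signal to DNA (-0.69 ± 0.15 SE, edgeR adjusted p = 0.0237). Of 17 target genes 16 had a negative log2 fold change (median of the 17 -0.69, beside -0.01 over all tested genes). Of the 17, 3 were called lower, 17.6%, beside 5.11% of all tested genes. These were Cdkn1a, a cell cycle inhibitor with many other inputs (-2.09 ± 0.38 SE, edgeR adjusted p = 0.0256), Ccn2, connective tissue growth factor (-1.56 ± 0.32 SE, edgeR adjusted p = 0.0215), and Fn1, fibronectin (-0.73 ± 0.18 SE, edgeR adjusted p = 0.0356). Among 7 extracellular antagonists Fst, which captures activins, rose from 5.77 ± 0.545 to 15.1 ± 7.20 CPM (SD, n = 3 each; 1.39 ± 0.32 SE, edgeR adjusted p = 0.0373), and Bgn, a matrix proteoglycan that binds TGF-beta, fell (-0.65 ± 0.14 SE, edgeR adjusted p = 0.0244). None of the 4 tested activin and GDF ligands was called, and 0 had an unadjusted p under 0.05 (edgeR); DESeq2 and limma-voom called 0 as well. Without PBS 4 the filter let in Mstn, a ligand made by muscle with 58 counts in PBS 1, 93 in PBS 2 and 0 elsewhere, and it was called (edgeR adjusted p = 0.00743). The 2 with the smallest p were Inhbb (-0.86) and Inhba (0.54). Of these 12 calls only those of Eng and Acvrl1 held whichever library was left out. Without PBS 1 there were 2 calls on the list, without PBS 2 there were 3, and without Rb2 3 there were 4. With GC content and length corrected for, 12 genes of the list were called again, but Emilin1, Fst, Cdkn1a and Fn1 were no longer among them (edgeR adjusted p 0.0584 to 0.0965), while Ltbp2 and Acvr2b (0.69), higher, and Skil (-1.16) and Dcn (-0.51), lower, were (edgeR adjusted p 0.0117 to 0.0418). With the muscle covariate Mmp2, Mmp14, Fbn1, Acvrl1, Eng and Fst were called, Emilin1, Bgn, Smad3, Ccn2, Fn1 and Cdkn1a were not (edgeR adjusted p 0.0521 to 0.0760), and Skil was (-1.18, edgeR adjusted p = 0.0373). Acvr2b, Skil and Dcn are named after their values were seen. Without PBS 1 and PBS 2, edgeR called 0 genes of the list, and 16 had an unadjusted p under 0.05. Sums of the endothelial markers and of the smooth muscle and pericyte markers were lower with Rb2 without overlap, and those of the fibroblast markers overlapped. Of the 8 smooth muscle and pericyte markers, Smtn and Kcnj8 were called lower (25%, beside 5.11% of all tested genes) and 6 were not called. The part of these cell types in the values of the list was not tested.

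**Figure D4:**
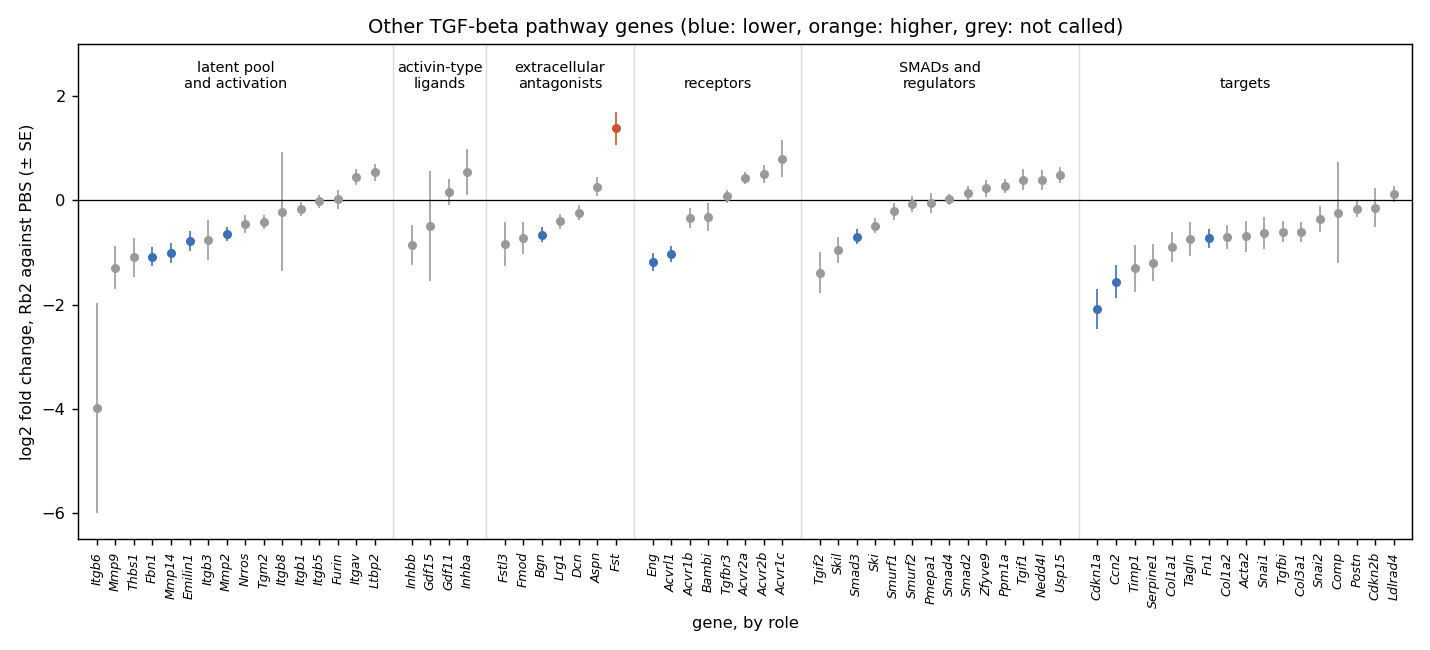
Log2 fold change (± SE) of the 66 tested genes of the wider pathway, grouped by role and sorted within it; blue genes were called lower, the orange gene higher. Itgb6, at 0 CPM in 2 libraries, has an SE of 2.02 and was not called.

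The genes whose pattern over the 6 libraries was most like that of Lrrc32, by the root-mean-square difference of centred log2 CPM among 12602 genes with a mean of at least 1 CPM, were Prr5, a subunit of the mTORC2 kinase complex (0.10), Slc7a1, a cationic amino acid transporter (0.15), Jdp2, a repressor of AP-1 sites (0.16), and the tubulin genes Tubb2b (0.16) and Tubb2a (0.17). Tubb2a and Tubb2b are close copies whose reads can be hard to separate. Within the set Smad7 was nearest to Lrrc32 (0.25, with 22 of the ranked genes nearer), followed by Ltbp4 (0.34, with 81 nearer) and Ltbp1 (0.51), and Tgfbr2 was farthest (1.10). Centring was on the mean of all 6 libraries, so the difference between the groups enters this measure. The named genes outside the set had log2 fold changes of -1.57 to -1.69, beside -1.78 for Lrrc32. The ranking therefore largely restates the fold changes, and co-expression within the groups was not tested.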

How the data were processed

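Messenger RNA libraries of 6 brown fat samples were made with a stranded poly(A) kit, per the labels' protocols. The values are read counts per gene, deposited by the authors as whole numbers without normalization. The submitters' processing notes name mm10, StringTie, Bowtie2, HISAT2 and Trimmomatic, without their roles; neither the counting program nor its strand setting is given in the sources used here. Replicates are 3 mice per group, per the labels. Counts were tested with edgeR 4.0.16 (R 4.3.3; TMM, robust quasi-likelihood fit, count minimum of 10, total of at least 15), with Benjamini-Hochberg adjustment over 16707 genes; SE was derived from the fold change and the F statistic. Alternatives used DESeq2 1.42.0, limma 3.58.1, other scalings and filters, left-out libraries, a muscle covariate, a block, and an offset from splines (5 degrees of freedom) of GC content and length of the longest GENCODE transcript, known for 94.4% of tested genes. Positions and promoters are from RefSeq GRCm38.p6, the assembly behind mm10.

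The members and lists were chosen with earlier results of these data known. Named genes are all 10 members, from each role of the wider list up to 4 called genes with the smallest p (or the 2 smallest where none was called), and the 5 genes most like Lrrc32; others are said to be named after their values were seen or stand as markers.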

Additional observations from a re-analysis of the deposited data

How the results depend on the processing

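The counts of called genes depended on the libraries more than on the scaling. In edgeR 1743 genes, 5 members (all lower) and 12 other pathway genes were called. The DESeq2 Wald test gave 3295 genes, 6 members and 32 pathway genes, the muscle covariate 907, 3 and 7, and the replicate block on the column numbers 96, 2 (Lrrc32 and Smad7) and 0. In the block fit PBS 2 and Rb2 3 share their number with no other library. That comparison therefore rests on PBS 1, PBS 4, Rb2 1 and Rb2 4 alone. Leaving out both PBS 1 and PBS 2, with the remaining PBS library assumed to vary like the Rb2 libraries, gave 0, 0 and 0, although 2063 genes, 4 members and 16 pathway genes had an unadjusted p under 0.05; Lrrc32 was then at -1.57 (edgeR adjusted p = 0.102) and Smad7 at -1.44 (edgeR adjusted p = 0.189). With 1 library left out the counts ran from 303 to 2269 genes, from 3 to 5 members and from 2 to 18 pathway genes; members numbered 3 without PBS 1, PBS 2, Rb2 1 or Rb2 3, always Lrrc32, Ltbp4 and Smad7. Such tests have fewer samples. No member was called higher under any alternative run.

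Fold changes near 0 changed sign: Tgfb2 ran from -0.151 to 0.0706 and Ltbp3 from -0.0843 to 0.0565 with a library left out (Tgfb2 0.0706 without PBS 4 and 0.0465 without Rb2 1; Ltbp3 0.0565 without PBS 4 and 0.0341 without Rb2 4), and Ltbp3 was 0.273 with the GC and length offset. Of 170 member values under alternatives, 142 kept sign and call, 21 lost the call, 2 gained it and 5 changed sign. Library size alone left Tgfb1 at an edgeR adjusted p of 0.0509, and limma-voom left Ltbp1 at an adjusted p of 0.0522. Of all called genes 51.1% were higher, but 38.7% with library size alone and 61.6% with the offset. The column numbers 1 and 4 occur in both groups, and the deviations of those libraries had correlations of -0.197 and -0.215. Pairs with unequal numbers ran from -0.472 (PBS 2 and Rb2 1) to 0.506 (PBS 4 and Rb2 1). PBS 4 and Rb2 1 had the fewest muscle transcripts of their groups. The labels tie no libraries by number, and with 3 libraries per group these correlations cannot show whether equal numbers belong together. Depth limits Tgfb2, with 110 to 187 counts.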
